A study of Mus musculus with 6 samples.

Results

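The genes described here are 9 regulators and products of the helper T cell programs, measured in mouse regulatory T (Treg) cells: Tbx21, Eomes, Rora, Bcl6, Stat3, Stat4, Stat6, Ifng and Il12rb2. They were taken by gene symbol, and 9 of the 9 symbols were found among the 14608 genes of the deposited tables. The 6 RNA-seq libraries were made from spleen cells enriched for CD4 on magnetic columns and then sorted as CD4 and YFP double positive. There were 2 libraries from WT mice, 2 from mice with a heterozygous Cdc42 knockout (Cdc42+/-) and 2 from mice with a homozygous one (Cdc42-/-). The study's design gives each library a separate mouse. Cdc42-/- replicate 2 held both sex-linked transcripts, Xist and Ddx3y, so its origin from 1 mouse is not borne out and was not tested. Cdc42 is a small GTPase best known for steering the actin cytoskeleton and cell polarity. The promoter that drives YFP or a recombinase, the strain, the age and the sex of the mice are not given in the sources used here. The genotype names below stand for the libraries so labelled.

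Naive CD4 T cells take on helper fates under the direction of cytokines, STAT proteins and lineage transcription factors. In the Th1 program, interleukin 12 (IL-12) signals through its receptor to STAT4, and T-bet (encoded by Tbx21) and Eomes switch on interferon gamma (Ifng). STAT6 carries the interleukin 4 signal of the Th2 program, STAT3 carries that of interleukin 6 and its relatives in Th17 cells, where RORα (Rora) also acts, and BCL6 directs follicular helper cells. Treg cells are known to borrow parts of these programs: T-bet, STAT3 and BCL6 have each been tied to Treg cells that restrain the matching helper response.

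Levels are given as RPKM, reads per kilobase of gene scaled to the size of the library, so that genes can be compared per length. A library held between 8556576 and 17796100 reads in genes. Differences were tested with limma on log2(RPKM + 1) over 12233 genes, with the 6 libraries in 1 fit, and a gene was called at a Benjamini-Hochberg adjusted p under 0.05. A fit that leaves out 1 library takes the spread of that genotype from the other libraries. Its adjusted p then does not measure the spread within that genotype. On the log2(RPKM + 1) scale the median SD was 0.22 in Cdc42-/-, 0.11 in WT and 0.084 in Cdc42+/-. Several features of the libraries bear on the values below. Summed over all counted bases, Cdc42 itself stood at 166 and 161 RPKM in the WT libraries, 164 and 156 in Cdc42+/-, and 122 and 173 in Cdc42-/-, so its level does not check the genotype labels. The 12 myeloid marker genes summed to 25.4 to 56.0 RPKM in the WT libraries, 40.3 to 47.1 in Cdc42+/-, 38.1 in Cdc42-/- replicate 1 and 1560 in Cdc42-/- replicate 2, where Lyz2 alone reached 600.2 RPKM. Xist was at 0.199 and 1.13 RPKM in the WT libraries, 99.3 and 93.3 in Cdc42+/-, and 87.4 and 21.2 in Cdc42-/-, and Y-linked Ddx3y was at 37.7 and 42.4, 0.126 and 0, and 0.0974 and 27.5 RPKM, so genotype and sex-linked expression cannot be told apart between WT and Cdc42+/-. The same limit holds for Cdc42-/- against WT, where Xist rose (log2 fold change 4.80, adjusted p 0.00753) and replicate 2 held both transcripts, and so for each call against WT below. Cdc42-/- replicate 2 also differed from both Cdc42+/- libraries in the 2 transcripts, so for that library the limit reaches the calls against Cdc42+/-. The Treg and CD4 T cell markers were present in every library: Foxp3 was lowest at 58.4 RPKM and Cd4 at 131 RPKM, both in Cdc42-/- replicate 2. In the other libraries Foxp3 was between 103 and 131 RPKM and Cd4 between 172 and 219 RPKM. The 2 erythroid markers found, of 4 listed, summed to 2.36 and 15.2 RPKM in Cdc42-/- and to at most 0.384 RPKM elsewhere. In bulk RNA, a change in the share of cells that make a transcript and a change in its amount per cell cannot be told apart.

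In WT Treg cells the 3 STAT genes had the highest levels of the 9. Mean levels per length fell in the order Stat6 (78.1 RPKM), Stat3 (64.4), Stat4 (47.4), Bcl6 (10.7), Rora (3.96), Tbx21 (3.87), Ifng (1.84), Eomes (1.25) and Il12rb2 (0.789). The WT libraries of Stat6, Stat3, Stat4 and Bcl6 did not overlap with those of their neighbours in that order. Rora and Tbx21 overlapped, and so did Ifng with Eomes and Eomes with Il12rb2. Of the 14608 genes, 94.9% lay below Stat6 in WT and 23.3% below Il12rb2. In Cdc42-/- the percentage of genes below Stat4 was 78.7, against 89.9 in WT, and that below Il12rb2 was 46.2, below Tbx21 59.1 and below Ifng 44.6, against 23.3, 39.8 and 31.4. The other 5 genes kept closer to their places: the percentage was 94.3 for Stat3 against 93.5 in WT, 93.7 for Stat6 against 94.9, 55.1 for Bcl6 against 58.0, 37.7 for Rora against 40.2 and 31.2 for Eomes against 27.8.

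The genotypes were compared in 3 ways. In Cdc42-/- against WT, Ifng and Il12rb2 rose and Stat4 fell, 3 of 9 genes, where 11.4% of all genes tested were called. Against Cdc42+/-, Il12rb2 rose and Stat4 fell, 2 of 9 genes, beside 8.22% of all genes. In Cdc42+/- against WT, 0 of 9 genes were called by limma, as were 0% of all genes, with a smallest adjusted p of 0.206; 1 of the 9 (Rora) had an unadjusted p under 0.05, as did 529 of all genes tested. The median log2 fold change of the 9 genes was 0.22, 0.26 and 0.11 in these comparisons, beside 0.01, -0.01 and 0.03 for all genes tested. The libraries of the genotypes did not overlap for 5 of the 9 genes in Cdc42-/- against WT (56.0% of all genes), for 8 of 9 against Cdc42+/- (59.0%), and for 2 of 9 in Cdc42+/- against WT (43.2%); as shares of the 9 genes these were 55.6%, 88.9% and 22.2%, so the first stood at the background. The authors' deposited table called 2 of the 9 genes in Cdc42-/- against WT, Stat4 and Il12rb2, where it called 8.66% of its genes, and 2 in Cdc42+/- against WT, Rora and Bcl6, where it called 2.28%. The comparisons against WT share the WT libraries.

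**Figure D1:**
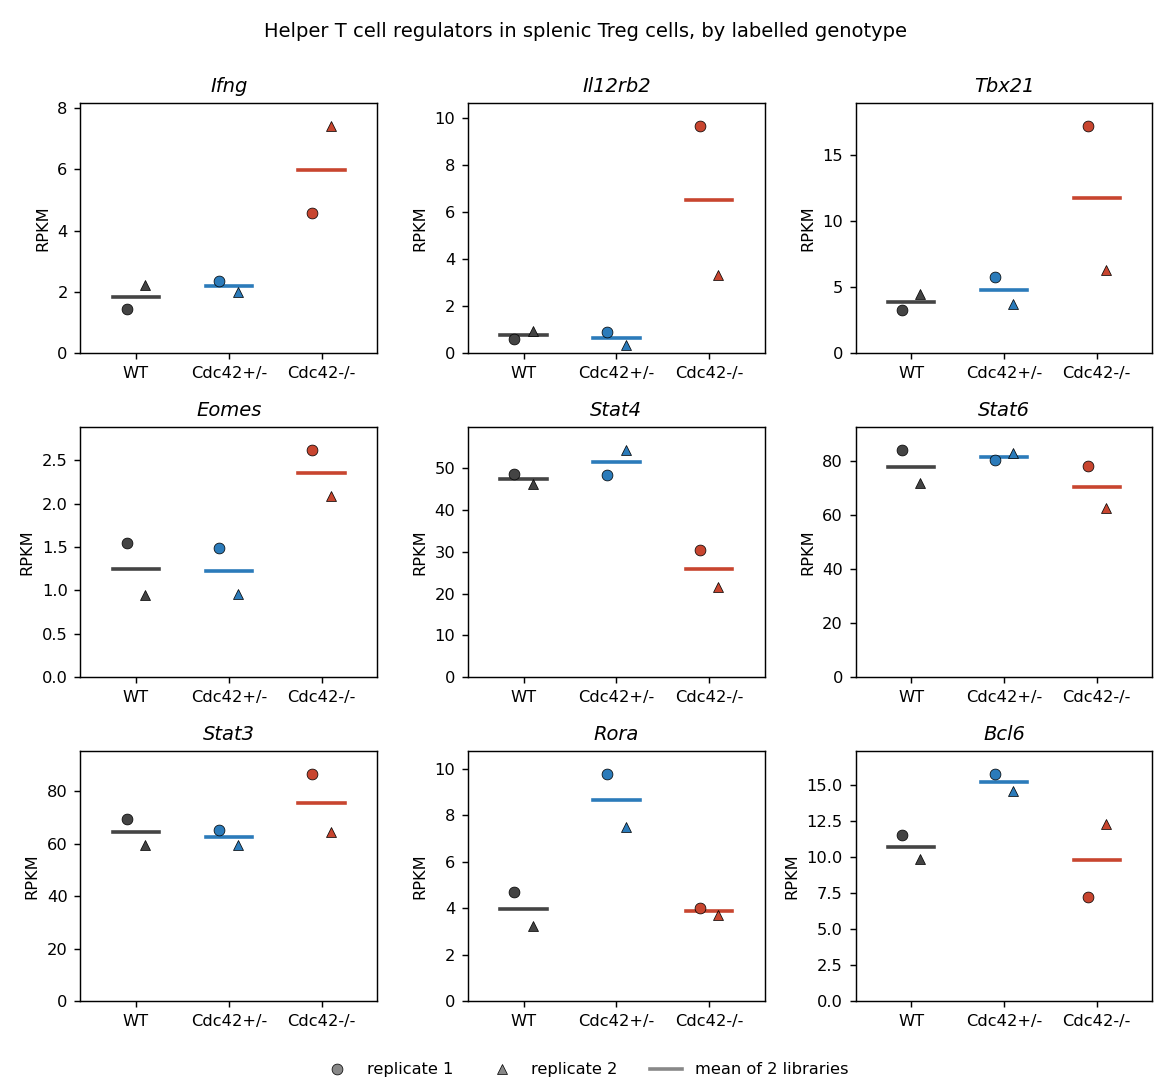
RPKM (vertical axes, from 0) of the 9 genes in each library of the 3 labelled genotypes (horizontal axes); circles are replicate 1, triangles replicate 2 and bars the mean of 2 libraries. Ifng and Il12rb2 are higher and Stat4 is lower in both Cdc42-/- libraries than in the other 4, and Rora is higher in both Cdc42+/- libraries.

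Il12rb2 (gene ID 16162, on chromosome 6 from 67285986 to 67376293 in GRCm38) encodes the inducible signalling chain of the IL-12 receptor. It was at 0.619 and 0.960 RPKM in the WT libraries, 0.899 and 0.369 in Cdc42+/-, and 9.66 and 3.31 in Cdc42-/-. Both Cdc42-/- libraries lay above the other 4 without overlap, and replicate 1 was 2.92 times replicate 2. The mean rose from 0.789 ± 0.241 (SD, n = 2) in WT to 6.48 ± 4.49 RPKM, 8.21-fold, with a log2 fold change of 1.93 (SE 0.45, limma adjusted p 0.0470) against WT and 2.07 (SE 0.45, adjusted p 0.0466) against Cdc42+/-. Between 20 and 42 reads lay behind the low values and 325 and 92 behind the high ones. Counting error alone gives the WT libraries 95% exact Poisson intervals of 0.418 to 0.884 and 0.621 to 1.42 RPKM, and Cdc42-/- replicate 2 an interval of 2.67 to 4.06 RPKM. Without replicate 2, where myeloid markers were high, the log2 fold change against WT was 2.58, and without replicate 1 it was 1.27. The call against WT was lost under 9 of 14 alternatives: without WT replicate 1 or 2 (adjusted p 0.213 and 0.191), without Cdc42+/- replicate 1 or 2 (0.111 and 0.109), with only the genotypes compared (0.109), without the filter on low values (0.0598), with upper-quartile scaling (0.0526), with array weights (0.0592) and with voom on read counts (0.0748). The range over all 14 was 0.00259 to 0.213. The call against Cdc42+/- was lost under 8 of 14: without the same libraries (0.109, 0.110, 0.208 and 0.295), with only the genotypes compared (0.112), without the filter (0.0601), with upper-quartile scaling (0.0511) and with voom (0.0585), within a range of 0.00389 to 0.295. In the GENCODE annotation of GRCm38, 1519 exonic bases of Il12rb2 overlap those of Serbp1, and the strand setting of the counting is not given in the sources used here. Serbp1 stood at 66.4 and 75.2 RPKM in the WT libraries, 67.5 and 66.6 in Cdc42+/-, and 69.3 and 90.0 in Cdc42-/-, and the part of shared reads in the Il12rb2 values was not tested.

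The constant chain of the same receptor, Il12rb1, was at 18.3 and 13.5 RPKM in the WT libraries, 17.3 and 14.0 in Cdc42+/-, and 36.0 and 21.5 in Cdc42-/-. Its difference did not pass the threshold (log2 fold change against WT 0.78, adjusted p 0.119). The ratio of Il12rb2 to Il12rb1 within a library was 0.0338 and 0.0711 in the WT libraries, 0.0520 and 0.0263 in Cdc42+/-, and 0.269 and 0.154 in Cdc42-/-.

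Ifng (gene ID 15978, chromosome 10, 118441046 to 118445894), the cytokine that Th1 cells secrete, was at 1.45 and 2.22 RPKM in the WT libraries, 2.37 and 2.00 in Cdc42+/-, and 4.56 and 7.42 in Cdc42-/-. Both Cdc42-/- libraries were again the highest, but here replicate 2 exceeded replicate 1. The mean rose from 1.84 ± 0.542 to 5.99 ± 2.02 RPKM (SD, n = 2), 3.26-fold, with a log2 fold change of 1.28 (SE 0.28, limma adjusted p 0.0374). Against Cdc42+/- (2.18 ± 0.264 RPKM) the log2 difference of 1.11 fell short of the threshold (SE 0.28, adjusted p 0.0646). It was 1.41 without Cdc42-/- replicate 1 and 0.81 without replicate 2. The Ifng values rest on only 23 to 82 reads per library. The exact Poisson intervals of the nearest libraries were 1.41 to 3.33 RPKM in WT replicate 2 and 3.49 to 5.86 RPKM in Cdc42-/- replicate 1. The call against WT kept a positive log2 fold change without Cdc42-/- replicate 2 (0.98) or replicate 1 (1.58). It was lost under 8 of 14 alternatives: without WT replicate 1 or 2 (0.189 and 0.124), without Cdc42+/- replicate 1 or 2 (0.107 and 0.106), with only the genotypes compared (0.106), without the filter (0.0527), with array weights (0.0684) and with voom (0.0765), within a range of 0.00460 to 0.189. In the authors' deposited table Ifng had a log2 fold change of 1.66 with an adjusted p of 0.251.

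Tbx21 (gene ID 57765, chromosome 11, 97098007 to 97115331) encodes T-bet, the lineage factor of Th1 cells. It was at 3.25 and 4.49 RPKM in the WT libraries, 5.80 and 3.74 in Cdc42+/-, and 17.2 and 6.31 in Cdc42-/-. The 2 Cdc42-/- libraries were the highest of the 6, but replicate 2 was only 1.63 times the WT mean while replicate 1 was 4.45 times. The log2 difference against WT was 1.26 (SE 0.44) and did not pass (adjusted p 0.123). With replicate 2 left out it was 1.92, and with replicate 1 left out it was 0.60. Against Cdc42+/- the values were 1.02 (SE 0.44, adjusted p 0.200) with both libraries, 1.68 without replicate 2 and 0.36 without replicate 1. In the authors' deposited table the adjusted p of Tbx21 against WT was 0.0648.

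Eomes (gene ID 13813, chromosome 9, 118478186 to 118486132) is the T-box relative of T-bet, prominent in CD8 T and NK cells. It was at 1.55 and 0.953 RPKM in the WT libraries, 1.49 and 0.957 in Cdc42+/-, and 2.62 and 2.08 in Cdc42-/-. The Cdc42-/- libraries were the highest, with a log2 difference of 0.58 against WT (SE 0.27, adjusted p 0.210) and 0.60 against Cdc42+/- (SE 0.27, adjusted p 0.214), neither past the threshold. The ratio of Tbx21 to Eomes was 2.10 and 4.71 in the WT libraries, 3.89 and 3.91 in Cdc42+/-, and 6.57 and 3.03 in Cdc42-/-, with overlap between the genotypes.

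Markers of other cells that express these Th1 genes were low but not uniform. The 3 NK cell markers in the tables, of 6 listed, summed to 0.602 and 0.733 RPKM in the WT libraries, 2.10 and 2.23 in Cdc42+/-, and 0.447 and 3.23 in Cdc42-/-. Of these 3, Klrb1c was at 0 in Cdc42-/- replicate 1 and Klrk1 at 0 in WT replicate 1. The 2 CD8 T cell markers summed to 8.12 and 8.48, 7.50 and 6.72, and 8.85 and 10.6 RPKM, with Cd8a at 4.23 RPKM in Cdc42-/- replicate 2 and between 0.229 and 1.13 RPKM elsewhere. The 5 dendritic markers summed to 7.21 RPKM in Cdc42-/- replicate 2 and to at most 2.33 RPKM in any other library. The part of these cells in the values of the Th1 genes was not tested.

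The stretches of promoter upstream of Il12rb2, Ifng, Tbx21 and Stat4 are shown because these genes form 1 pathway, in which Il12rb2 and Ifng rose, Stat4 fell and Tbx21 was not called. They are RefSeq windows of GRCm38.p6, written 5′ to 3′ on the gene's strand and ending at the base before the annotated gene begins. Capitals mark matches to TTCNNNGAA, the palindromic motif that STAT proteins bind.
Il12rb2, chr6:67376294-67376438, minus strand: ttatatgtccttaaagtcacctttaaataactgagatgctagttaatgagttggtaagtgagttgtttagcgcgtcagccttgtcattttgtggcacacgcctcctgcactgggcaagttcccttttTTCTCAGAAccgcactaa
Ifng, chr10:118440796-118441045, plus strand: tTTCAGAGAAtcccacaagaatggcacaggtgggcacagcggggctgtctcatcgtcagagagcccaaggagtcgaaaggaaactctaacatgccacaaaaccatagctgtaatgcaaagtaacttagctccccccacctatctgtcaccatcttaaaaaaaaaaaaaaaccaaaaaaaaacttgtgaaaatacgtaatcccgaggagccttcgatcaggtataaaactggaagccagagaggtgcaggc
Tbx21, chr11:97115332-97115581, minus strand: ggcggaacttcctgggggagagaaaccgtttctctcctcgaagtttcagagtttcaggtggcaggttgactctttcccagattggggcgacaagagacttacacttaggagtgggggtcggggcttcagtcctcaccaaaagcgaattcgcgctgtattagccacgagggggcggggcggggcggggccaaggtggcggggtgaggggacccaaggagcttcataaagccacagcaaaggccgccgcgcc
Stat4, chr1:51986898-51987105, plus strand: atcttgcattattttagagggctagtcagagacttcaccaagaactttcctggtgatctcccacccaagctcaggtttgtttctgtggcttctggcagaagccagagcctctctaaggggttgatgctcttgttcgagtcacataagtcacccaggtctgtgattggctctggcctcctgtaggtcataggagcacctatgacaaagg

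One match each stood in the Il12rb2 and Ifng windows and none in those of Tbx21 and Stat4. The search covered both strands of the 250 bases before each RefSeq start. Over the 9 genes, 4 of 11 windows held TTCNNNGAA (1 of Il12rb2, 1 of Ifng and 2 of Bcl6, the second of which held 3 matches), where 7.02% of all 32851 windows did. The same half-sites with 4 letters between them, the spacing favoured by STAT6, were in 0 of the 11 windows and in 5.85% of all windows. The T-box motif AGGTGTGA was in 0 of the 11 and in 1.12% of all. A match is a description of the letters and not a binding site.

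Stat4 (gene ID 20849, chromosome 1, 51987106 to 52107189), the transducer of the IL-12 receptor, moved against its receptor chain and against Ifng. It was at 48.6 and 46.2 RPKM in the WT libraries, 48.4 and 54.5 in Cdc42+/-, and 30.5 and 21.5 in Cdc42-/-. Both Cdc42-/- libraries lay below the other 4, at 0.644 and 0.454 times the WT mean. The mean fell from 47.4 ± 1.68 in WT and 51.4 ± 4.32 in Cdc42+/- to 26.0 ± 6.38 RPKM (SD, n = 2), with log2 fold changes of -0.86 against WT (SE 0.18, limma adjusted p 0.0316) and -0.97 against Cdc42+/- (SE 0.18, adjusted p 0.0270). Depth was not limiting, with 619 to 3057 reads per library. Without Cdc42-/- replicate 2 the change against WT was -0.62, and without replicate 1 it was -1.1. The calls were each lost under 5 of 14 alternatives: with only the genotypes compared (0.0913 against WT, 0.0861 against Cdc42+/-), without WT replicate 1 or 2 (0.175 and 0.166 against WT, 0.0841 and 0.0838 against Cdc42+/-) and without Cdc42+/- replicate 1 or 2 (0.0893 and 0.0895 against WT, 0.169 and 0.227 against Cdc42+/-), with ranges of 0.000621 to 0.175 and 0.000642 to 0.227. The authors' deposited table gave Stat4 an adjusted p of 0.0110 against WT.

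The T cell receptor subunits moved with Stat4. Cd3e was at 372 and 382 RPKM in the WT libraries, 395 and 376 in Cdc42+/-, and 237 and 202 in Cdc42-/-, and fell by 0.78 on the log2 scale against WT (adjusted p 0.0126). The ratio of Stat4 to Cd3e within a library was 0.130 and 0.121 in the WT libraries, 0.123 and 0.145 in Cdc42+/-, and 0.129 and 0.107 in Cdc42-/-, with overlap between the genotypes. The ratio of Stat4 to Cd4 was 0.252 and 0.249, 0.221 and 0.259, and 0.178 and 0.164, without overlap between Cdc42-/- and the rest. Stat4 was thus lower relative to Cd4, but not beyond the spread of libraries relative to Cd3e. Of the 8 Treg and CD4 T cell markers (Cd4, Cd3e, Cd3d, Cd3g, Foxp3, Il2ra, Ctla4 and Ikzf2), Cd3e, Cd3d, Cd3g and Ikzf2 fell in Cdc42-/- against WT, 4 of 8, and 0 rose, beside 11.4% of all genes called.

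Set against the other STAT genes described here, Stat4 was lower in both Cdc42-/- libraries. The ratio of Stat4 to Stat3 was 0.700 and 0.778 in the WT libraries, 0.741 and 0.914 in Cdc42+/-, and 0.352 and 0.334 in Cdc42-/-. The ratio of Stat4 to Stat6 was 0.575 and 0.643, 0.601 and 0.656, and 0.390 and 0.343 in the same order. Neither ratio overlapped between Cdc42-/- and the other genotypes, and the Cdc42-/- replicates were close to each other although their Stat4 levels were 30.5 and 21.5 RPKM. Ratios show that these genes did not move together, and not which of them moved.

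**Figure D2:**
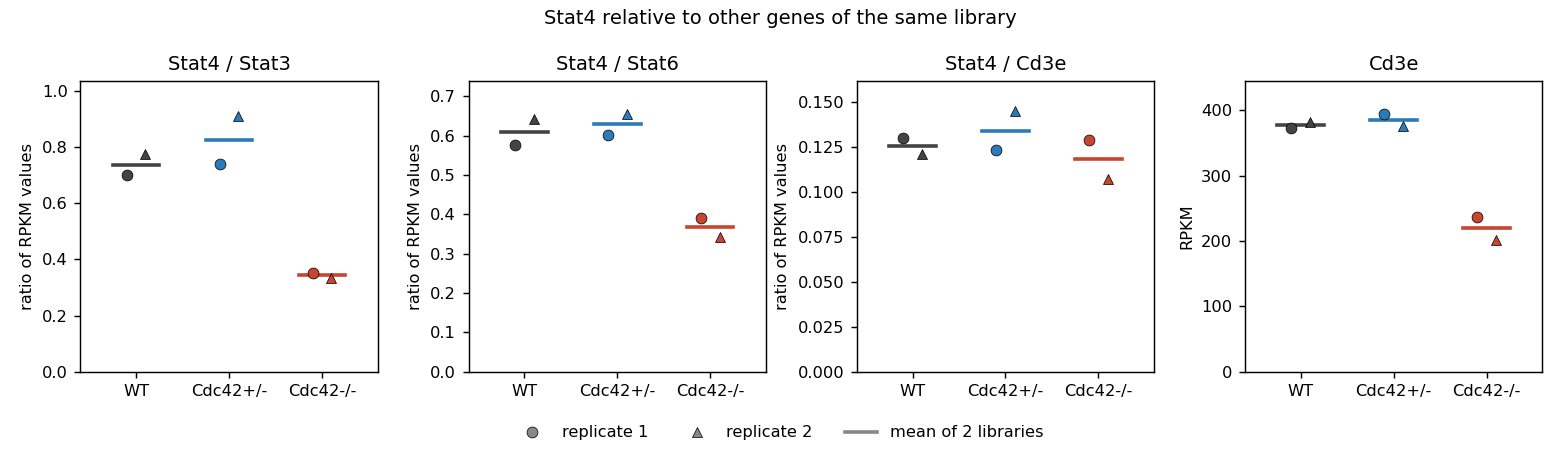
From left to right, for each library of the 3 genotypes (horizontal axes): the ratio of Stat4 to Stat3, the ratio of Stat4 to Stat6, the ratio of Stat4 to Cd3e, and the RPKM of Cd3e; circles and triangles are replicates 1 and 2 and bars their mean. The ratio of Stat4 to Stat3 is 0.352 and 0.334 in Cdc42-/- and at least 0.700 elsewhere, while its ratio to Cd3e overlaps between genotypes.

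Stat3 (gene ID 20848, chromosome 11, 100886806 to 100939594), the transducer of interleukin 6 family and interleukin 10 signals, was at 69.4 and 59.4 RPKM in the WT libraries, 65.3 and 59.6 in Cdc42+/-, and 86.7 and 64.4 in Cdc42-/-. The genotypes overlapped, and the log2 differences of Cdc42-/- were 0.22 against WT (SE 0.17, adjusted p 0.426) and 0.26 against Cdc42+/- (SE 0.17, adjusted p 0.362). Replicate 1 of Cdc42-/- was the highest library. Without replicate 2 the difference from Cdc42+/- was 0.47, and without replicate 1 it was 0.05.

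Stat6 (gene ID 20852, chromosome 10, 127642955 to 127660987), the transducer of interleukin 4 and interleukin 13, was at 84.4 and 71.9 RPKM in the WT libraries, 80.5 and 83.1 in Cdc42+/-, and 78.3 and 62.6 in Cdc42-/-. Its log2 difference in Cdc42-/- was -0.15 against WT (SE 0.14, adjusted p 0.522) and -0.22 against Cdc42+/- (SE 0.14, adjusted p 0.362), neither past the threshold. The latter was -0.38 without Cdc42-/- replicate 1 and -0.06 without replicate 2. Its receptor chain Il4ra was at 54.1 and 47.1 RPKM in the WT libraries, 42.5 and 47.0 in Cdc42+/-, and 75.5 and 59.1 in Cdc42-/-, also short of the threshold (0.40 against WT, adjusted p 0.146). By exon annotation Stat6 shares 40 bases with Nab2.

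**Figure D3:**
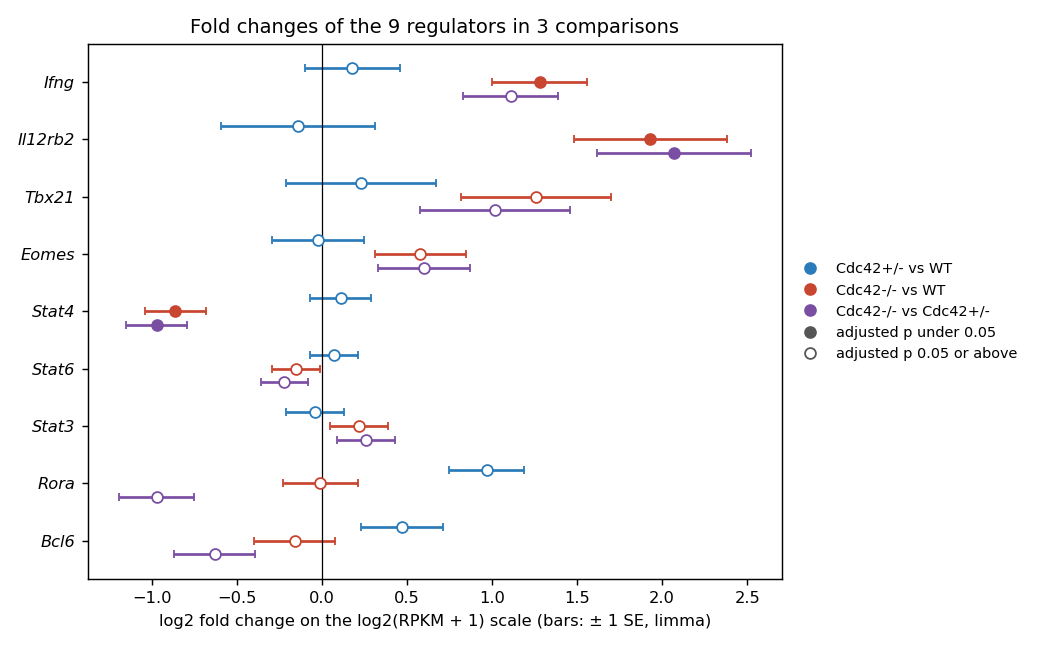
Log2 fold change (horizontal axis, log2(RPKM + 1) scale) of the 9 genes in the 3 comparisons, with bars of ± 1 SE from limma; filled points have an adjusted p under 0.05. Filled points are those of Ifng (1.28) against WT, and of Il12rb2 (1.93 and 2.07) and Stat4 (-0.86 and -0.97) in both Cdc42-/- comparisons.

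Rora (gene ID 19883, chromosome 9, 68653404 to 69388246) encodes the nuclear receptor RORα, which acts in Th17 cells and is also found in tissue Treg cells. It stood apart in Cdc42+/-: the values were 4.70 and 3.22 RPKM in the WT libraries, 9.80 and 7.50 in Cdc42+/-, and 4.03 and 3.73 in Cdc42-/-. Both Cdc42+/- libraries lay above the other 4, and the Cdc42-/- libraries lay within the range of WT. The mean was 3.96 ± 1.05 in WT and 8.65 ± 1.63 RPKM in Cdc42+/- (SD, n = 2), a ratio of 2.18. The log2 difference of 0.97 (SE 0.22) had a limma p of 0.00454 and an adjusted p of 0.525, so it was not called; over 14 alternatives the adjusted p lay between 0.105 and 1.00. The authors' deposited table did call it, with a log2 fold change of 1.09 and an adjusted p of 6.78e-08. Cdc42-/- against Cdc42+/- gave -0.97 (SE 0.22, adjusted p 0.0517), just outside the threshold. This difference passed with voom on read counts (-1.14, adjusted p 0.0191), with upper-quartile scaling (adjusted p 0.0457) and with the replicate block (adjusted p 0.0470). It did not pass with array weights (adjusted p 0.126). Without Cdc42-/- replicate 1 it was -1.02, and without replicate 2 it was -0.93. The values rest on 340 to 1854 reads per library. The Cdc42+/- libraries also differed from WT in Xist and Ddx3y, so genotype and sex-linked expression cannot be told apart in the comparison of Rora between them.

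Bcl6 (gene ID 12053, chromosome 16, 23965050 to 23988866) encodes the repressor that directs follicular T cells and germinal centre B cells. It was at 11.5 and 9.92 RPKM in the WT libraries, 15.8 and 14.6 in Cdc42+/-, and 7.27 and 12.3 in Cdc42-/-. The Cdc42+/- libraries were the highest and the Cdc42-/- libraries fell on either side of WT. The log2 differences were 0.47 in Cdc42+/- against WT (SE 0.24, adjusted p 0.999), -0.16 in Cdc42-/- against WT (SE 0.24, adjusted p 0.701) and -0.63 in Cdc42-/- against Cdc42+/- (SE 0.24, adjusted p 0.162). The last was -0.97 without Cdc42-/- replicate 2 and -0.28 without replicate 1. The authors' deposited table gave the first an adjusted p of 0.0482 with a log2 fold change of 0.47. The 8 B cell markers, from cells that also express Bcl6, summed to 17.1 and 11.4 RPKM in the WT libraries, 20.3 and 17.4 in Cdc42+/-, and 10.5 and 14.4 in Cdc42-/-, with Ms4a1, Pax5 and Blk each at 0 in at least 1 library. Those sums ordered the genotype means as Bcl6 did, and their part in its values was not tested.

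Prdm1, which encodes the BLIMP1 repressor that opposes BCL6, rose in Cdc42-/-. It was at 4.88 and 3.37 RPKM in the WT libraries, 6.31 and 5.88 in Cdc42+/-, and 15.1 and 15.8 in Cdc42-/- (1.70 against WT, adjusted p 0.00443). The ratio of Bcl6 to Prdm1 was 2.36 and 2.95 in the WT libraries, 2.51 and 2.48 in Cdc42+/-, and 0.480 and 0.779 in Cdc42-/-. Cxcr5, the chemokine receptor of follicular cells, was at 30.7 and 28.5 RPKM, 29.4 and 28.8, and 16.0 and 5.32 RPKM in the same order, with a log2 difference of -1.56 against WT that was short of the threshold (adjusted p 0.0656).

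**Figure D4:**
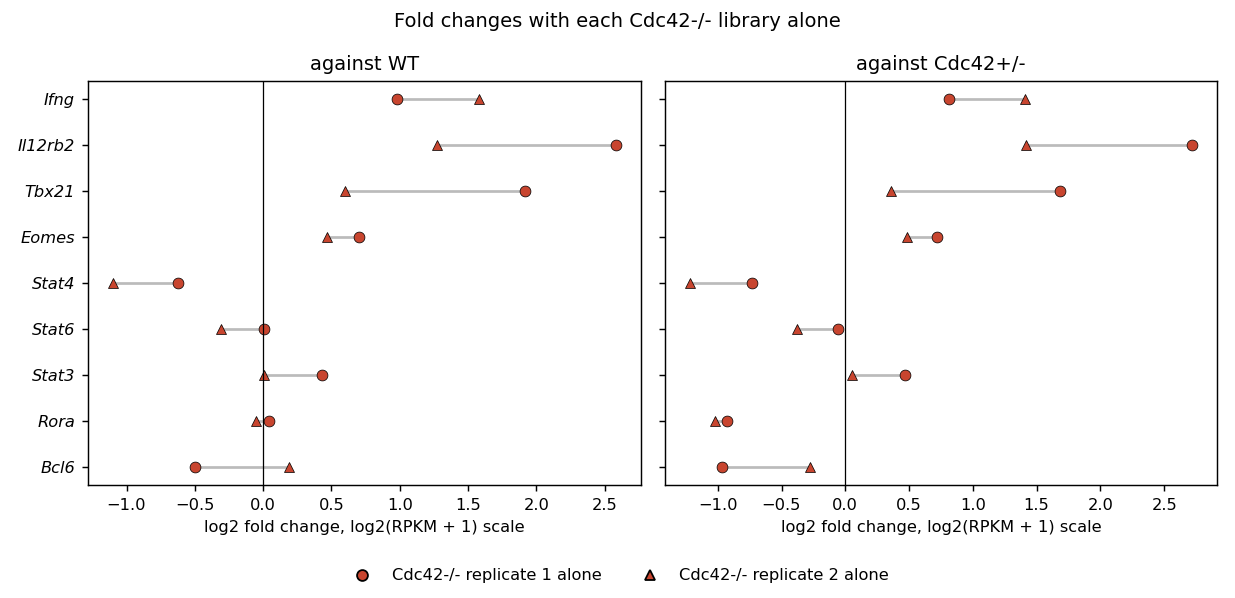
Log2 fold change (horizontal axes, log2(RPKM + 1) scale) of the 9 genes against WT (left) and against Cdc42+/- (right) when Cdc42-/- is represented by replicate 1 alone (circles) or replicate 2 alone (triangles). Against WT, Il12rb2 is at 2.58 and 1.27 and Tbx21 at 1.92 and 0.60, while Bcl6 changes sign, at -0.50 and 0.19.

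The spread between replicates differed by gene. On the log2(RPKM + 1) scale the SD of the 2 Cdc42-/- libraries was 0.93 for Tbx21, 0.92 for Il12rb2, 0.49 for Bcl6 and 0.42 for Ifng, beside a median of 0.22 over all genes tested. Rora had an SD of 0.06 and Eomes of 0.16 in the same libraries. In WT the 9 genes ranged from 0.05 (Stat4) to 0.31 (Rora), where the median gene had 0.11.

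The wider programs around these regulators were read from lists that leave out the 9 genes. Of the 18 Th1 program genes, 5 rose and 2 fell in Cdc42-/- against WT, where 11.4% of all genes were called, and their median log2 fold change was 0.63, beside 0.01 for all genes tested. Havcr2, the inhibitory receptor TIM-3, rose from 0 and 0.943 RPKM in WT to 13.0 and 20.1 (3.63, adjusted p 0.00411). Runx3, a T-bet partner, rose from 10.6 and 11.2 to 25.7 and 21.5 RPKM (1.05, adjusted p 0.00809). Lta, the cytokine lymphotoxin alpha, fell from 76.0 and 65.4 to 34.5 and 28.0 RPKM (-1.16, adjusted p 0.00576). Havcr2 is also made by myeloid cells, whose markers summed to 38.1 RPKM in Cdc42-/- replicate 1 and 1560 RPKM in replicate 2, and their part in its level was not tested. Cxcr3, the chemokine receptor that T-bet induces, was at 34.9 and 31.7 RPKM in the WT libraries, 47.3 and 52.5 in Cdc42+/-, and 65.1 and 39.9 in Cdc42-/-, short of the threshold (0.60, adjusted p 0.141). Against Cdc42+/-, where 8.22% of all genes were called, 3 Th1 genes rose and 2 fell, among them Ifngr2, a chain of the interferon gamma receptor (0.88, adjusted p 0.0173), and Fasl (-1.08, adjusted p 0.0356). Without Cdc42-/- replicate 2 the counts were 9 higher and 2 lower against WT and 6 higher and 4 lower against Cdc42+/-, where the same fit called 18.5% and 14.9% of all genes.

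Of the Th2 program, 12 of 16 genes were in the tables and 11 were tested; 2 rose and 1 fell in Cdc42-/- against WT, beside 11.4% of all genes called, with a median of 0.40. Il1rl1, the interleukin 33 receptor, rose from 5.53 and 3.29 to 13.4 and 13.5 RPKM (1.45, adjusted p 0.0167). It also stood at 13.3 and 9.97 RPKM in Cdc42+/-, and Cdc42-/- differed from Cdc42+/- by 0.21 (adjusted p 0.611). Il10 rose from 2.16 and 1.52 to 5.40 and 13.0 RPKM (1.74, adjusted p 0.0397). Its higher value was in Cdc42-/- replicate 2, where myeloid markers summed to 1560 RPKM, and their part was not tested. The repressor Gfi1 fell from 20.3 and 18.5 to 9.73 and 7.97 RPKM (-1.05, adjusted p 0.0189). Gata3, the Th2 lineage factor, stood at 47.0 and 44.9 RPKM in WT against 56.7 and 63.2 RPKM in Cdc42-/- (0.38, adjusted p 0.0790), and Il4, its signature cytokine, was at 0.447 and 0 RPKM against 0.322 and 4.16 RPKM (1.12, adjusted p 0.304). Against Cdc42+/-, Il10 and Ccr8 rose (2 of 11) and 0 fell, beside 8.22% of all genes called. Of the 14 Th17 program genes, 9 were in the tables and 6 were tested. Irf4 (1.04, adjusted p 0.0107) and Batf (0.71, adjusted p 0.0342), activation-induced factors that Th17 cells share with other T cells, rose against WT (2 of 6) and 0 fell; against Cdc42+/- the same 2 rose and 1 gene fell, with the same shares of all genes called as for the Th2 list. Il17a was listed but was not among the 9 genes found, so it could not be analysed. Without Cdc42-/- replicate 2, 4 Th2 genes rose and 1 fell against WT, and 3 Th17 genes rose and 2 fell; against Cdc42+/-, 3 Th2 genes rose and 2 fell, and 3 Th17 genes rose and 3 fell, beside 18.5% and 14.9% of all genes called.

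Of the 19 follicular program genes 17 were tested, and they moved both ways in Cdc42-/- against WT: 3 rose and 4 fell, where 11.4% of all genes were called, with a median of -0.01. Icos, a costimulatory receptor, rose from 38.6 and 41.2 to 170 and 184 RPKM (2.12, adjusted p 0.00144), while Pdcd1, which encodes PD-1, fell from 26.3 and 33.5 to 7.73 and 7.32 RPKM (-1.85, adjusted p 0.00191) and Id3 from 63.6 and 75.7 to 23.9 and 19.8 RPKM (-1.63, adjusted p 0.00231). Against Cdc42+/-, where 8.22% of all genes were called, 3 rose and 5 fell, and Sh2d1a, the SLAM adaptor SAP, was among the latter (-1.03, adjusted p 0.0131). Of the 14 JAK-STAT partners, 0 were called by limma in any of the 3 comparisons, and before adjustment 0 of them had a p under 0.05 in Cdc42+/- against WT, 4 in Cdc42-/- against WT and 6 in Cdc42-/- against Cdc42+/-, where 529, 3589 and 3318 of the 12233 genes tested did. Without Cdc42-/- replicate 2, 1 of these partners rose against WT and 4 rose against Cdc42+/-, and 0 fell; of the follicular genes, 4 rose and 5 fell against WT, and 3 rose and 7 fell against Cdc42+/-, beside 18.5% and 14.9% of all genes called. In Cdc42+/- against WT, 0 genes of any list were called by limma, with 6 Th1, 4 Th2, 0 Th17 and 5 follicular genes at an unadjusted p under 0.05. Without Cdc42-/- replicate 2 in the fit, 1 Th1 and 1 Th2 gene rose in that comparison, where 0.54% of all genes were called.

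**Figure D5:**
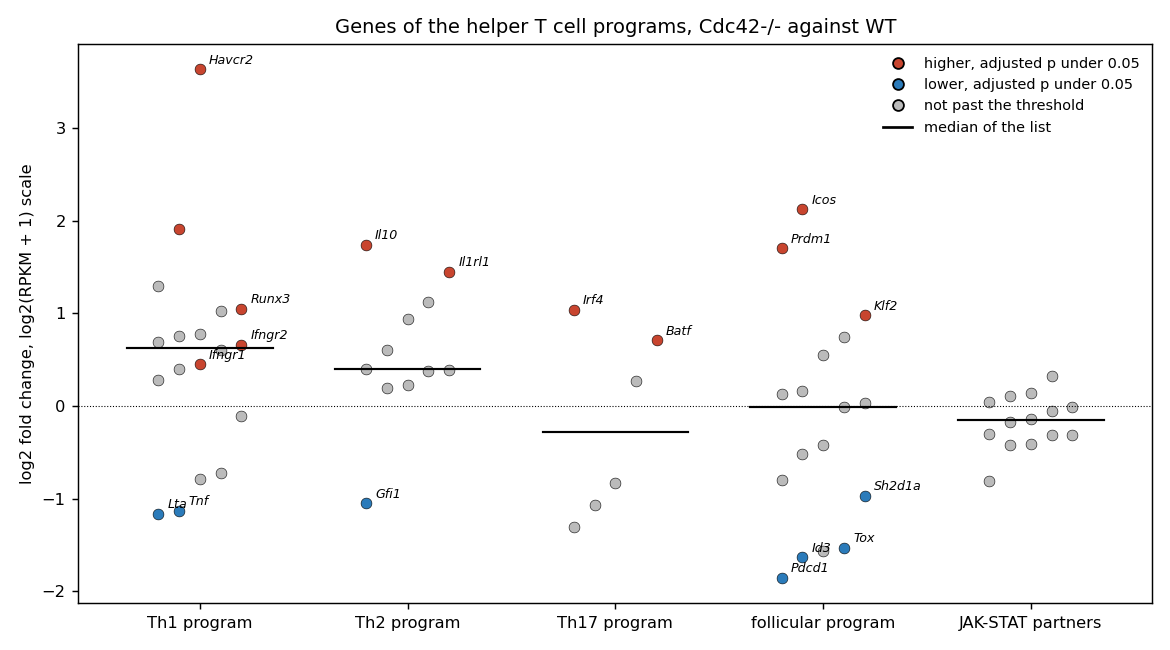
Log2 fold change of Cdc42-/- against WT (vertical axis, log2(RPKM + 1) scale) for every tested gene of the 5 lists (horizontal axis); red and blue points passed an adjusted p of 0.05, most of them named, grey points did not, and bars mark list medians. The Th1 list has its median at 0.63 and the follicular list at -0.01, with called genes on both sides of 0.

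Genes whose levels followed each regulator over the 6 libraries were found by Pearson's r of log2(RPKM + 1) among those that averaged 5 RPKM or more, as a description. Stat4 was most like Endov and Pisd-ps1 (r = 1.00 and 0.999), and 386 genes had an r above 0.95 with it. Ifng was most like Orc6 and Cdc45 (0.997 and 0.996), with 372 genes above 0.95. Il12rb2 was most like Prkcb and Cd69 (0.995 and 0.990), and Cd69 was at 119 and 67.4 RPKM in Cdc42-/- and between 44.0 and 50.5 RPKM elsewhere. Tbx21 was most like Fbxw7 and Anapc16 (0.991 and 0.989), Eomes like Asxl1 and Zfp207 (0.997 and 0.994), Rora like Chtf8 and Tmem71 (0.993 and 0.987), Bcl6 like Abhd6 and Gpr183 (0.998 and 0.983), and Stat6 like Med13l and Frmd8 (0.997 and 0.996). Bcl6 had 9 genes above 0.95 and Rora 16, the fewest of the 9. Among the regulators themselves, Tbx21 and Il12rb2 had an r of 0.95 and Ifng and Stat4 of -0.97. Each value rests on 6 libraries, 2 per genotype, and on the same libraries as all the others.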

How the data were processed

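Libraries were made from total RNA with an Illumina TruSeq kit, per the labels' protocols. The submitters' processing notes name TopHat and mm10; the counting tool, annotation, strand setting and filters are not given in the sources used here. The 2 deposited tables, per the file headers, hold values per library, group means, and the authors' fold change, log2 fold change, p-value and adjusted p-value; 0 columns had no known sample. The library values are RPKM made by the authors, judged from the values, since the headers give no unit. The group means are a signal made by the authors, reads over a size factor. Both together gave back whole reads (within 0.01) for 100% of values.

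With limma 3.58.1 in R 4.3.3 (eBayes with a trend), log2(RPKM + 1) was fitted where the mean over the 6 libraries reached 0.5 RPKM. On this scale a fold change understates the change of low genes. The 9 genes and all lists were chosen with earlier results of these data known. Beyond the 9, the text names at most 4 called genes per list and comparison by smallest p, 8 signature genes, a defining gene per marker list, and the 2 genes most like each regulator, without predicted genes; some genes that this rule names are not reported here. Cd3e, the other markers of its list, Serbp1, Nab2, Xist, Ddx3y and the markers at 0 reads fall outside this rule and were named after their values were seen. All 9 genes matched RefSeq (GRCm38.p6, the mm10 assembly) by gene ID, and 7 of them overlap another annotated gene. Alternatives covered the pseudocount (0.1), the filter, scaling, the libraries in the fit, array weights, the replicate block, voom on recovered reads and each library left out; list counts without Cdc42-/- replicate 2 were added after seeing the data. Poisson intervals cover counting error only, since PCR copies are not independent molecules.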

Additional observations from a re-analysis of the deposited data

How the results depend on the processing

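Over 27 values (9 genes in 3 comparisons) and 14 alternatives each, 0 of the 5 called values changed sign and 0 signs changed outside the runs that leave out 1 library, where a lone library is assumed to vary like the rest. In those runs 9 values that were not called changed sign. Against WT, Cdc42+/- ranged from -0.21 to 0.18 (log2) for Eomes, -0.02 to 0.37 for Ifng, -0.38 to 0.09 for Il12rb2, -0.15 to 0.07 for Stat3, -0.04 to 0.18 for Stat6 and -0.03 to 0.49 for Tbx21, and Cdc42-/- from -0.50 to 0.19 for Bcl6, -0.22 to 0.21 for Rora and -0.31 to 0.01 for Stat6. Of the 9 genes, the 3 called in Cdc42-/- against WT became 1 without the filter, 1 with array weights, 1 with voom and 0 with only the genotypes compared, which leaves 4 libraries in the fit, and 0 to 4 with a library left out. The 2 called against Cdc42+/- became 1 without the filter, 0 with only the genotypes compared and 0 to 5 with a library left out. In Cdc42+/- against WT 0 of the 9 were called under every alternative run. Over all genes, the 1398 called against WT became 536 with only the genotypes compared, 885 with array weights and 259 to 4433 with a library left out; the 1006 against Cdc42+/- became 276 and 0 to 4263 (first and last of these settings); and the 0 in Cdc42+/- against WT became 60, 88, 1 with voom and 0 to 76. The cause was not tested. With the replicate block, 1144 genes were called in Cdc42-/- against WT and 809 against Cdc42+/-; the replicate numbers share only a number, with correlations of deviations of 0.0177, 0.202 and -0.0343 between genotypes, and of the 27 values the block moved only Rora against Cdc42+/- across the threshold (0.0470). There were 2 libraries a genotype and 20 to 82 reads behind most Ifng and Il12rb2 values. The smallest difference that could be detected was not tested, so an uncalled gene is not shown to be unchanged.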
